A study of Mus musculus with 116 samples.

Results

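The data compared late 2-cell mouse embryos that had passed through a block of transcription as zygotes with control embryos that had not. The block used DRB, a compound that inhibits the kinase CDK9 and so stops RNA polymerase II (Pol II) from leaving the pause near the start of a gene. Gene levels were the authors' FPKM (fragments corrected for transcript length and for library size), and the libraries held total RNA from which ribosomal RNA had been removed. The genes described are the protein-coding symbols that reached 1 FPKM in either late 2-cell library, after rows that share a symbol were summed. They number 12944 of 20445 protein-coding symbols and of 24028 symbols in all, and the 7501 other protein-coding symbols were below 1 FPKM in both libraries.

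All embryos of this comparison were wild type, from C57BL/6N females crossed with PWK males. The females were 8 weeks old and had received PMSG and hCG, hormones that make them ovulate. Zygotes were taken 23 h after hCG and kept for 14 h in KSOM medium with 0.1% DMSO (the control) or with 60 uM DRB (a group titled mTBE, a name the labels leave unexpanded, and called DRB-released here). On reaching the 2-cell stage they were moved out of the treatment and cultured for 12 h. Each library pooled about 100 embryos. PN5 zygotes (the late pronuclear stage, 30 h after hCG) are in the same table. Early 2-cell embryos (36 h) and 2 replicates of the blastocyst's inner cell mass (ICM, 98 h) come from tables normalized separately and are given as levels only. The series holds 116 samples, of which 7 have RNA values read here, MII oocytes included though not described further, and the other 109 were not analysed here.

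Each side of the comparison was 1 library of pooled embryos. No test, standard error or p-value could therefore be had, and no difference below has a replicate check. Differences are given as DRB-released minus control in log2(FPKM + 1). A gene was counted as higher or lower when that difference was at least 1 in size, about 2-fold, which understates the fold of low genes. FPKM carries no read depth, so the depth behind each value is unknown, and since it is relative to the library, a change in the RNA of a whole embryo would not be seen. In these pooled embryos, fewer cells that express a gene and less RNA per cell cannot be told apart. How reads shared by near-identical genes, by overlapping genes or by antisense partners were assigned is not given in the sources used here, and such genes are uncertain one at a time.

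In the mouse, the zygote begins with transcripts stored by the oocyte and starts its own transcription in a minor wave before the first cleavage. A major wave follows in the 2-cell embryo, when most stored transcripts are also being cleared. The minor wave includes Dux, a transcription factor that switches on Zscan4, Usp17-like genes and many genes seen only at the 2-cell stage. The major wave includes the machinery for making ribosomes, proteins, nucleotides and RNA. Genes for body patterning, such as the Hox genes, act much later, after implantation.

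The markers of the 2-cell stage were present in both libraries. Zscan4d was at 12.8 FPKM in control and 6.48 in DRB-released embryos, Tdpoz4 at 47.5 and 20.8, and Zfp352 at 95.7 and 70.3. The oocyte transcripts Gdf9 (266 and 184 FPKM), Zar1 (101 and 90.5) and Zp3 (26.5 and 23.8) were also present in both. Of the blastocyst factors, Cdx2 was at 2.41 and 3.76 FPKM, Nanog at 1.84 and 3.51, and Gata6 at 2.54 and 4.59. Of other cells, the sperm transcripts Prm1 and Smcp and the blood markers Hbb-b1 and Ptprc were listed at 0 in both libraries. Other sperm transcripts were present and above control, Tnp1 at 1.92 and 4.98 FPKM and Prm2 at 0.487 and 1.56. In PN5 zygotes Tnp1 was listed at 0 and Prm2 was at 5.28 FPKM. The 20 cumulus and granulosa markers summed to 95.7 and 92.6 FPKM, with 8 and 6 listed at 0. The 16 sperm transcripts summed to 94.997 and 121 FPKM (7 and 5 at 0), and the 20 blood and stromal markers summed to 39.9 and 33.6 FPKM (10 and 13 at 0). Most of the sperm sum was Odf2 (81.7 and 101 FPKM). Of the 7 sperm transcripts measured 3 were higher and 1 was lower. Only 3 of the 7 were at 1 FPKM or more in both libraries, with 1 higher and none lower. Of the 10 cumulus and granulosa markers measured 2 were higher and 1 lower, and of the 7 blood and stromal markers 3 were lower and none higher. Over all measured genes 4.48% were higher and 10.0% lower. The part of these transcripts of other cells in the results below was not tested.

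In DRB-released embryos 1296 genes were lower (10.0% of those measured) and 580 were higher (4.48%), while 11068 lay within the 2-fold range. Between the 2 ICM replicates, which were made by another protocol (Smart-seq2), 446 of 9641 genes were apart by the same rule in either direction (4.63%). The median difference was -0.07, the middle 50% of genes lay between -0.53 and 0.31, and 90% lay between -1.29 and 0.95. The lower genes had a median of 14.1 FPKM in control and 4.79 in DRB-released embryos. The higher genes were faint, with medians of 0.584 and 3.15 FPKM. Only 216 of the 580 were at 1 FPKM or more in both libraries, against 1090 of the 1296 lower genes. The other higher genes passed the minimum only through the DRB-released library, so they had to be above control. Among the 6014 genes at 10 FPKM or more in either library, 808 were lower and 75 were higher.

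The split between higher and lower genes moved with the scaling and the filter. Higher genes made up 30.9% of those apart with the values as deposited. They made up 40.9% after median scaling, which set the median log2 ratio of genes that reach 5 FPKM in both libraries to 0 and moved it by 0.11, and 44.7% when each library was rescaled to a sum of 1000000. The rescaling moved the libraries against each other by -0.02 only, but it raised all values against the fixed pseudocount and minimum, so it changed those as well. They made up 15.0% when only genes at 5 FPKM or more were kept. At the edges of the rules, Tlr1 (0.280 and 1.00 FPKM) was just inside the level minimum and Gad2 (1.00 and 0.363) just outside. Atg13 (20.2 and 9.61) was just inside the size rule for lower genes and Rrbp1 (14.6 and 6.82) just outside.

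**Figure D1:**
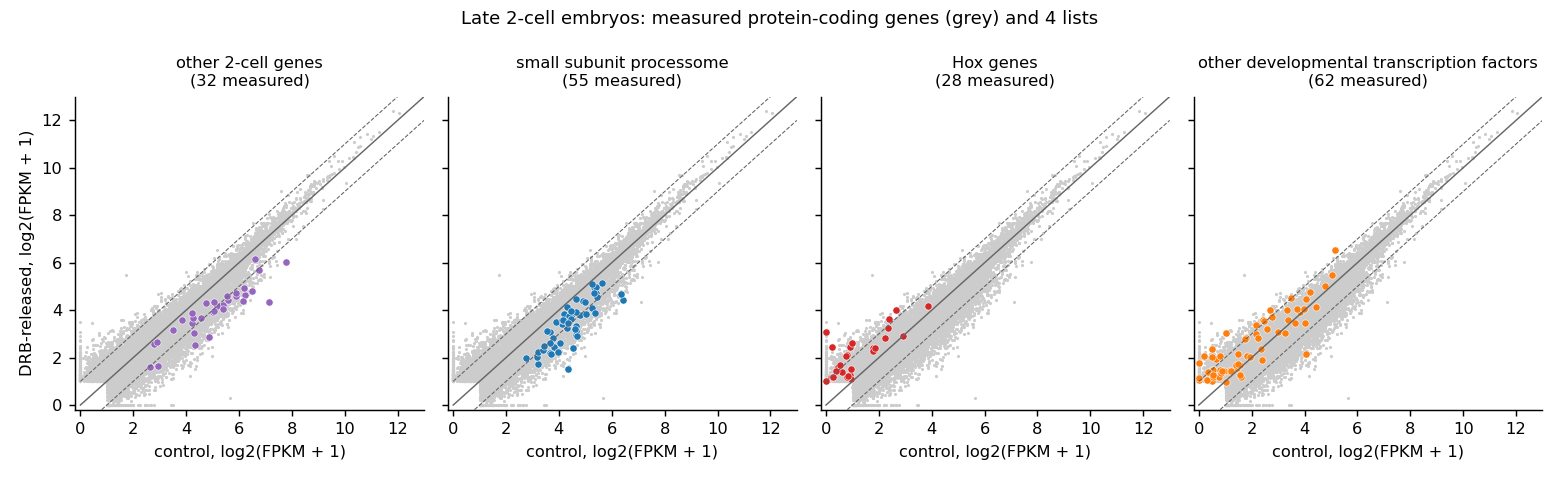
Control (x axis) against DRB-released (y axis) late 2-cell embryos, both in log2(FPKM + 1). In each of 4 panels grey points are all measured protein-coding genes, coloured points are the members of 1 gene list, the solid line marks equal values and the dashed lines a difference of 1. The 2-cell genes and the processome genes lie below the solid line throughout (32 and 55 members), and 8 of the 9 Hox genes at 1 FPKM or more in both libraries lie above it; the 19 others shown passed the minimum only through the DRB-released library and had to lie there.

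Genes were read in 54 lists by function. For each list the members named are those at the highest level and those furthest apart, and where a list is given whole or a sub-complex is added, that was chosen after the values were seen. Of the 54 list medians, 42 lay below the median of all measured genes, 33 lists had no higher member, and 3 lists had no lower member. The 3 were the Hox genes, the genes of the subcortical complex and maternal effect, and Wnt, Notch and Bmp signals. Counts of higher members are to be read against the 4.48% of all measured genes that were higher, a share at which a short list can hold none. Counts of lower members are to be read against the 10.0% of all measured genes that were lower. The share of lower members was near it for Pol II subunits and general factors (11.1%), the spliceosome (11.5%), sterol synthesis (11.8%) and the pause release factors (12.1%). It was under it for replication factors (6.38%) and the nuclear pore (6.45%). The difference also varies with a gene's level. Subtracting the running median of genes at like level, called level centring below, brought the mitosis list from -0.31 to -0.14, the spliceosome from -0.49 to -0.29, the translation factors from -0.35 to -0.19, CCT and prefoldin from -0.68 to -0.43, and the nuclear pore from -0.24 to -0.15.

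**Figure D2:**
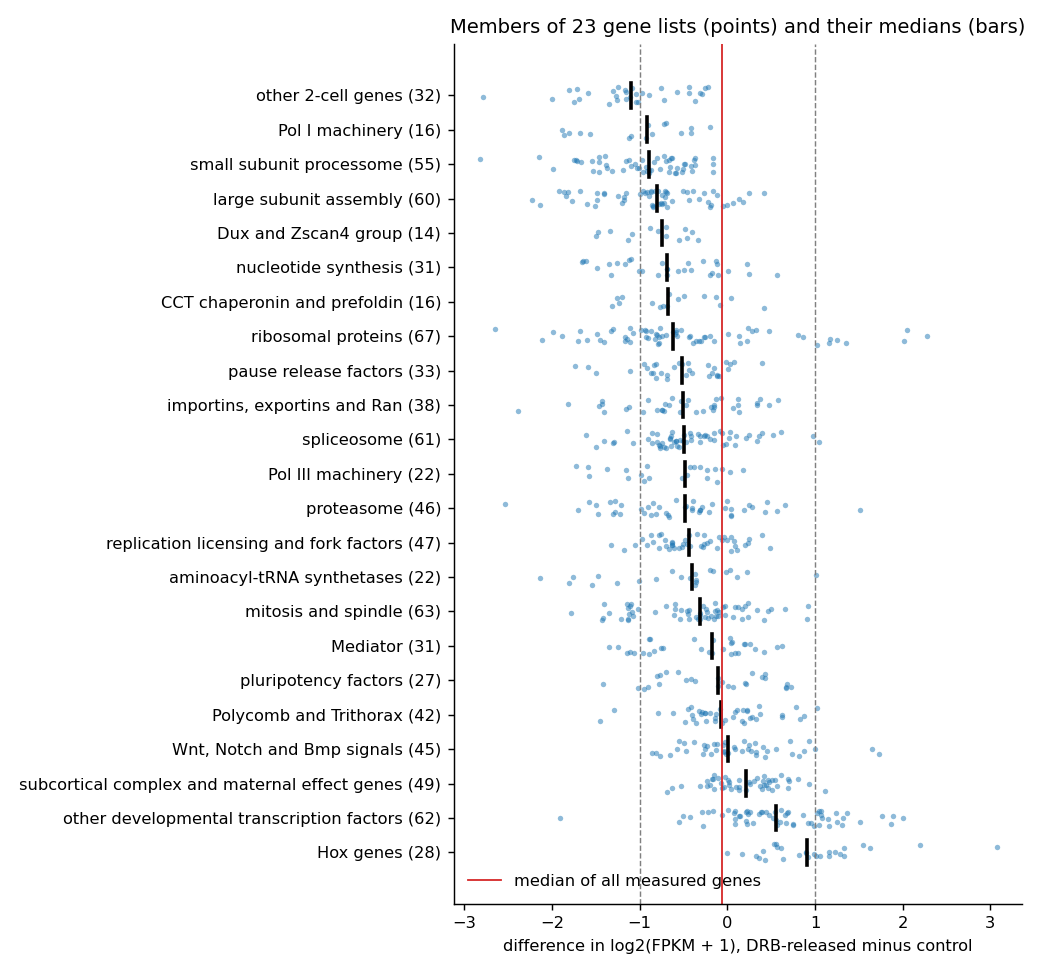
Difference in log2(FPKM + 1), DRB-released minus control, for the measured members (points, spread vertically at random) of 23 of the 54 lists, with the number measured in brackets. Black bars are list medians, from -1.10 for the 2-cell genes to 0.91 for the Hox genes. The red line is the median of all measured genes and the dashed lines mark the 2-fold rule. Of the 28 Hox genes shown, 19 passed the minimum only through the DRB-released library and had to be above control. In the 9 at 1 FPKM or more in both libraries the median was 0.57.

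The genes that peak at the 2-cell stage had the lowest median of all lists, -1.10. All 32 measured members were below control, 20 of them by the 2-fold rule, and none was higher. Rfpl4b, of the Ret finger protein-like family, was at 28.5 FPKM in control and 6.40 in DRB-released embryos. Slc34a2, a sodium and phosphate transporter, was at 216 and 65.0 FPKM (-1.72). The lower values were still far above those of the PN5 zygotes, where Rfpl4b was listed at 0 and Slc34a2 was at 0.496 FPKM. Families of close relatives all lay below control. The 4 measured Tdpoz genes had a median of -1.16, the 3 Trim43 genes -1.04, and the 2 Pramef genes -1.45. Members with little difference were Gm13119 (5.93 and 4.93 FPKM), D5Ertd577e (6.52 and 5.30) and Gm11487 (13.5 and 10.9).

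The group around Dux and Zscan4 showed a smaller gap, with a median of -0.75 over 14 measured genes, 5 of them lower and none higher. Dux itself has no protein-coding entry in the RefSeq table and is not counted; its symbol was at 0.991 FPKM in control and 1.68 in DRB-released embryos, against 25.4 in the separately normalized early 2-cell library. Tcstv1 was at 54.4 and 18.6 FPKM (-1.50) and its close relative Tcstv3 at 49.6 and 22.1 (-1.13). Of the 5 Usp17-like genes, deubiquitinases encoded in a tandem array, Usp17lb stood furthest apart at 56.3 and 19.7 FPKM (-1.47), and Usp17le least at 14.0 and 10.9 (-0.33). The 4 measured Zscan4 genes, among them Zscan4c at 6.95 and 3.90 FPKM, were all below control and all within the 2-fold range. The RefSeq table held 10 promoters of this group, of which 70.0% held the letters TATAAA and 90.0% the letters CCAAT, against 14.6% and 42.5% of all protein-coding promoters. Many of these genes are near copies of others in their own family, so promoters within a family share sequence, which limits what such shares describe.

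RNA polymerase I (Pol I), which transcribes the ribosomal RNA genes, was below control in all 16 of its listed genes, with a median of -0.92. By the 2-fold rule 7 members were lower and none was higher. Of the enzyme's subunits, Polr1c was at 52.2 FPKM in control and 13.6 in DRB-released embryos (-1.86), Znrd1 at 18.5 and 4.29 (-1.88), and Cd3eap at 10.8 and 2.37 (-1.80). The large catalytic subunits were closer, Polr1a at 13.8 and 6.79 FPKM (-0.93) and Polr1b at 27.1 and 14.5 (-0.86). Ubtf, which opens the ribosomal RNA genes, was at 41.3 and 13.3 FPKM (-1.57), and at 1.81 in PN5 zygotes. Of the promoter selectivity factor, Taf1b was at 6.27 and 1.27 FPKM (-1.68), Taf1d at 69.7 and 36.9 (-0.90), Taf1a at 28.7 and 17.0 (-0.73) and Taf1c at 1.33 and 0.0686 (-1.13). Nearest to control were the subunits Twistnb (6.85 and 5.82 FPKM, -0.20) and Polr1d, which Pol III shares (61.3 and 45.6, -0.42). Rrn3, which brings Pol I to its promoter, was at 79.4 and 48.3 FPKM (-0.70). Baz2a, which silences ribosomal RNA genes, was at 63.3 and 47.2 FPKM (-0.42).

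**Figure D3:**
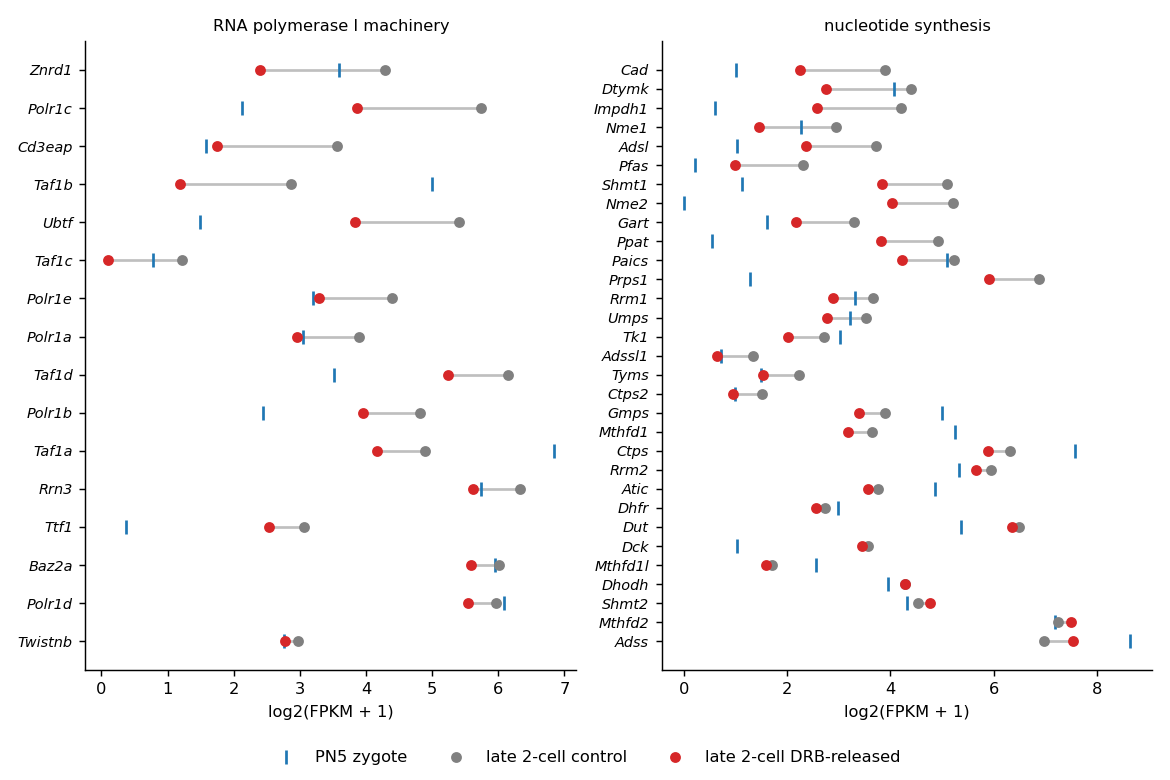
Levels in log2(FPKM + 1) of the genes of RNA polymerase I (left) and of nucleotide synthesis (right) in PN5 zygotes (blue bar), control late 2-cell embryos (grey) and DRB-released late 2-cell embryos (red), 1 library each. All 16 polymerase genes are below control, as are 27 of 31 genes of nucleotide synthesis.

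The small subunit processome assembles on the new ribosomal RNA around the U3 small nucleolar RNA and, with later factors on this list, shapes the small ribosomal subunit. All 55 of its genes were measured in both libraries and all were below control, 23 by the 2-fold rule, with a median of -0.89 and medians of 19.9 and 10.4 FPKM. Tbl3, a scaffold protein, was the furthest apart at 19.4 FPKM in control and 1.87 in DRB-released embryos (-2.83). Nob1, the nuclease that cuts the end of the small ribosomal RNA, was at 22.4 and 4.29 FPKM (-2.15). Rrp9, a protein of the U3 particle, was at 84.5 and 20.6 FPKM (-1.98). The factors of the list nearest to control were the kinase Riok1 (36.8 and 32.9 FPKM), Utp18 (18.6 and 16.5) and Mphosph10 (23.9 and 21.2). Fbl, which methylates ribosomal RNA, was at 13.2 and 4.49 FPKM (-1.37). Its partner Nop58 was at 41.0 and 30.7 FPKM (-0.41), so the proteins of 1 particle did not stand equally far from control. After the running median difference of genes at the same level was subtracted, the list median was -0.69.

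Nob1 and Rrp9 are the pair of processome genes furthest below control among those with 1 listed start, and their promoters are printed to show what sequence lies before such genes. They are the 250 bases before the start, 5′ to 3′ on the gene's strand, from RefSeq on build GRCm38.p6, which is not the build of the expression files. Capitals mark matches, on either strand and free to overlap, to the letters searched. These were the TATA box TATAAA (in 14.6% of all 16349 protein-coding promoter windows), the E-box CACGTG (9.34%), the GC box GGGCGG (51.6%), the CCAAT box (42.5%), the CRE element TGACGTCA (2.66%) and the NRF1 core GCGCATGC (4.15%). In Nob1 the capitals are the last of these read on the other strand, and in Rrp9 they are CCAAT at 2 places. Nob1 lies at chr8:107425039-107425288 on the minus strand and Rrp9 at chr9:106477059-106477308 on the plus strand.
Nob1: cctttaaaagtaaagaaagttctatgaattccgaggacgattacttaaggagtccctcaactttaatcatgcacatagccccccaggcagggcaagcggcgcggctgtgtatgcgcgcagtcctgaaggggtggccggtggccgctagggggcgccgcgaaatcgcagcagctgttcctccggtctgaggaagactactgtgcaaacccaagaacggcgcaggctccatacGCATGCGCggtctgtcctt
Rrp9: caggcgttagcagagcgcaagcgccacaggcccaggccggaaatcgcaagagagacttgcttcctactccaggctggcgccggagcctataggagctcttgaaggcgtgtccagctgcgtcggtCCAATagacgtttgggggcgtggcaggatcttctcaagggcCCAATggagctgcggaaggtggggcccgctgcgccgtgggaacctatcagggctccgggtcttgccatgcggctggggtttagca
Neither stretch holds TATAAA. Over the 45 processome promoters in the table (windows of 300 bases, from 250 before to 50 after the start), the median ratio of observed to expected CpG was 0.875 and 4.44% held TATAAA. Among all 10471 measured genes with a promoter these values were 0.741 and 9.44%. CACGTG was in 24.4% of the processome windows, 11.6% of the measured ones and 9.34% of all 16349 protein-coding windows. By the 2-fold rule it was in 11.7% of lower genes, 7.85% of higher genes and 11.8% of the rest. Its share was 15.7% in large subunit assembly and 12.5% in the Pol I list. In the immediate early genes it was 32.0%, so a high share is not particular to the processome.

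Assembly of the large subunit gave a similar picture, with 54 of 60 genes below control, 19 by the 2-fold rule, none higher and a median of -0.81. Ddx54, an RNA helicase, was at 36.0 FPKM in control and 6.88 in DRB-released embryos (-2.23). Nop2, which methylates the large ribosomal RNA, was at 46.2 and 9.68 FPKM (-2.14), and Eif6, which keeps the unfinished subunit from joining, at 109 and 38.4 (-1.48). Some abundant nucleolar proteins were level between the libraries. Npm1 (nucleophosmin) was at 51.8 FPKM in both, Rsl1d1 at 206 and 215, and the pseudouridine synthase Dkc1 at 40.1 and 38.9. Of the box H/ACA proteins that work with Dkc1, Nhp2 was at 64.2 and 19.3 FPKM (-1.68) while Gar1 was at 12.6 and 17.3 (0.42). Pol III, which makes transfer RNA and 5S RNA, had 6 lower and no higher gene of 22, with a median of -0.49. Its subunit Polr3e was at 11.5 and 2.76 FPKM (-1.73), and Gtf3c5, of the factor that recruits it, at 39.4 and 12.5 (-1.58).

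Ribosomal protein genes themselves were mixed, with 18 lower and 8 higher of 67 measured and a median of -0.62. Of these, 11 passed the minimum only through the control and 6 only through the DRB-released library, and in the 50 at 1 FPKM or more in both, 10 were lower and 2 higher. Many of these genes have processed pseudogene copies and their levels are uncertain. The proteins of mitochondrial ribosomes split by subunit, with a median of -0.57 over 46 Mrpl genes of the large subunit and -0.12 over 27 Mrps genes of the small subunit. The difference between these subunits was not tested.

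Enzymes that make nucleotides formed another low list, with 11 of 31 genes lower, none higher and a median of -0.69. Cad, which starts pyrimidine synthesis, was at 14.0 FPKM in control and 3.73 in DRB-released embryos (-1.66). Of the purine route, Ppat was at 29.2 and 13.1 FPKM (-1.10), Gart at 8.82 and 3.52 (-1.12), Pfas at 3.95 and 0.977 (-1.32), Adsl at 12.2 and 4.17 (-1.35) and Atic at 12.5 and 10.8 (-0.19). Prps1, which makes the activated sugar for both routes, was at 117 and 58.8 FPKM (-0.98), against 1.45 in PN5 zygotes. Impdh1, on the branch to guanine nucleotides, was at 17.3 and 4.98 FPKM (-1.62), whereas Adss, on the branch to adenine nucleotides, was at 125 and 186 (0.57). Dtymk, which makes the thymidine nucleotide for DNA, was at 20.1 and 5.75 FPKM (-1.64). Aprt, which salvages adenine and is among the 15 furthest below control of the genes at 10 FPKM or more in either and 1 FPKM or more in both libraries, was at 30.1 and 4.52 FPKM (-2.50); it has a named pseudogene.

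Protein folding, translation and turnover were lower in part. All 7 Cct genes, subunits of the ring that folds actin and tubulin, were below control with a median of -0.77, for example Cct3 at 66.5 and 26.1 FPKM (-1.32). The 5 prefoldin genes, which deliver clients to that ring, had a median of -0.27. All 12 measured Eif3 genes, of the factor that loads the small subunit onto mRNA, were below control, 5 of them lower, with a median of -0.81. Eif3c was at 52.1 and 15.3 FPKM (-1.71). The 12 Eif4 genes, some of which code for proteins that bind the cap, had a median of -0.26. The oocyte form Eif4e1b was at 462 and 653 FPKM (0.50). Transfer RNA synthetases counted 7 lower and 1 higher of 22, such as Aimp2, a scaffold of their complex, at 24.7 and 4.83 FPKM (-2.14).

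Of 46 proteasome genes 11 were lower and 1 was higher. The 6 Psmc genes, ATPases of the cap, had a median of -0.88, the 14 Psmd genes of the cap -0.69, the 10 Psmb genes of the core -0.61 and the 7 Psma genes of the core -0.18. Psmd14, the deubiquitinase of the cap, was at 9.52 FPKM in control and 2.78 in DRB-released embryos (-1.47). The 4 Psme genes, of the alternative activators, had a median of -0.02, with 2 below and 2 above control. Psme3 (216 and 321 FPKM, 0.57) and Psme4 (233 and 283, 0.28) were above. Psme1 was the furthest apart of the whole list at 4.80 and 0 FPKM (-2.54), and it passed the minimum only through the control. Psme4 and Psme3 were the most abundant of the list in both libraries. In the endoplasmic reticulum list, with 7 lower and 1 higher of 36, the chaperones Hspa5 (173 and 88.1 FPKM, -0.96) and Calr (154 and 76.4) were below control and Canx (194 and 161, -0.27) was nearer.

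DRB acts on the release of paused Pol II, and the embryos had spent 12 h without the compound. Of 33 factors of pausing and elongation 29 were below control, and the median was -0.52, or -0.32 after level centring. By the 2-fold rule 4 were lower (12.1%, against 10.0% of all measured genes) and none was higher. Cdk9, the kinase that DRB inhibits, was at 34.0 FPKM in control and 17.1 in DRB-released embryos (-0.95), and its cyclins Ccnt1 (14.4 and 12.8) and Ccnt2 (28.4 and 28.1) were nearer. Of the negative elongation factor, Nelfe was at 15.4 and 4.45 FPKM (-1.59) and Nelfcd at 12.0 and 3.58 (-1.50), but Nelfa was at 57.0 and 53.4 (-0.09). Supt5, a subunit of the DSIF pausing factor, was at 31.6 and 14.1 FPKM (-1.11), and Mllt1, of the super elongation complex, at 10.7 and 2.52 (-1.74), whereas its paralog Mllt3 was at 86.1 and 113 (0.39). Hexim1, which holds Cdk9 inactive, was at 55.9 and 36.4 FPKM (-0.60), and at 0.576 in PN5 zygotes.

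Pol II itself was closer to control, with a median of -0.21 over 45 subunits and general factors, 5 lower and none higher. Polr2e, a subunit shared by all 3 nuclear polymerases, was at 43.1 FPKM in control and 14.1 in DRB-released embryos (-1.54), and Polr2f, also shared, at 286 and 252 (-0.18). Mediator, which links activators to Pol II, had 5 lower and no higher of 31, with a median of -0.17. Its subunit Med24 was at 25.3 and 9.36 FPKM (-1.35) and Med27, the most abundant, at 166 and 190 (0.19). In the Integrator complex, which ends paused transcription, 12 of 14 genes were below control, with Ints1 at 16.2 and 5.29 FPKM (-1.45) and the nuclease Cpsf3l at 11.4 and 3.93 (-1.33).

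RNA processing and transport gave 7 lower (11.5%, near the 10.0% of all measured genes) and 1 higher of 61 spliceosome genes, 5 lower and none higher of 21 decay genes, and 8 lower and none higher of 38 import and export genes. Snrpa1, of the U2 particle, was at 17.2 and 4.93 FPKM (-1.62). The 10 Exosc genes of the RNA exosome had a median of -0.83, with Exosc5 at 15.1 and 4.86 FPKM (-1.45), whereas Mphosph6, which binds that complex, was at 673 and 1240 (0.88). Ipo4, an importin that carries histones and ribosomal proteins, was at 16.7 and 2.39 FPKM (-2.38), and Rangap1, which drives the transport cycle, at 28.9 and 9.83 (-1.46). The nuclear pore, with a median of -0.24 over 31 genes and 2 lower, was nearer to control. Nup62, its most abundant member, was at 215 and 249 FPKM (0.21).

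Of 63 mitosis genes 16 were lower (25.4%) and none higher by the 2-fold rule, with a median of -0.31, or -0.14 after level centring. Cdc20, which activates the anaphase-promoting complex, was at 68.6 FPKM in control and 19.1 in DRB-released embryos (-1.79), and the separase gene Espl1 at 67.2 and 24.5 (-1.42). Cdk1 was at 32.9 and 14.5 FPKM (-1.13), while its cyclin Ccnb1 was at 20.1 and 38.9 (0.92). Wee2, the oocyte kinase that restrains Cdk1, was at 526 and 704 FPKM (0.42), and Plk4, which builds centrioles, at 117 and 186 (0.66). All 8 Mcm genes, which form and load the replicative helicase, were below control with a median of -0.56, none by the 2-fold rule. The G1 list went both ways, with 3 lower and 3 higher of 38 and a median of -0.05. Its lower genes were Ccne1 (141 and 62.6 FPKM, -1.16), Cdk4 (9.51 and 3.64, -1.18) and the inhibitor Cdkn2b (3.49 and 0.737, -1.37). Its higher genes were the inhibitors Cdkn1b (13.0 and 29.1 FPKM, 1.10) and Cdkn2a (4.38 and 12.2, 1.30) and the factor Mycl (3.46 and 9.45, 1.23).

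Replication histones counted 13 lower and 1 higher of 57, with a median of -0.18, or -0.10 after level centring. Of the lower ones, Hist2h3b was at 20.3 FPKM in control and 3.09 in DRB-released embryos (-2.38) and Hist1h2ai at 11.4 and 1.86 (-2.12). The abundant Hist1h1a (4252 and 5103 FPKM, 0.26), Hist1h4c (2492 and 2947, 0.24) and Hist1h3f (2037 and 2372, 0.22) were slightly above control. Genes of this family are near copies and share reads. Among genes that answer to stress or metal, the metallothioneins Mt1 (142 and 40.6 FPKM, -1.78) and Mt2 (233 and 128, -0.86) were listed at 0 in PN5 zygotes. Of the p53 targets, 5 of 32 were lower and none higher, with Sesn2 at 92.8 and 28.0 FPKM (-1.69) and Pmaip1 at 15.3 and 3.96 (-1.72). Mvk, of sterol synthesis, was at 17.0 and 5.43 FPKM (-1.49), in a list whose share of lower genes (4 of 34, 11.8%) was near that of all measured genes.

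Hox genes were the highest list. Of 39 listed, 37 were above control in DRB-released embryos, 2 were below, and the median over all 39 was 0.61. Only 28 passed the level minimum, 9 of them in both libraries and 19 only through the DRB-released library, so those 19 had to be above control. The 11 others were at most 0.904 FPKM. In the 9 genes at 1 FPKM or more in both libraries the median was 0.57, and 2 were higher by the 2-fold rule. Among all 20445 protein-coding symbols 39.6% were above and 41.3% below control, and 3909 were equal. In the 7501 below 1 FPKM in both libraries 29.8% were above and 18.1% below. Measured genes with a mean of 0.1 to below 1 FPKM had a median of 0.47, and 21.2% were higher. From 1 to below 5 FPKM the median was 0.01, and 7.03% were higher. After level centring the median of the 28 measured Hox genes was 0.69. The sum over all 39 was 56.6 FPKM in control, 131 in DRB-released embryos and 16.0 in PN5 zygotes.

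The Hox genes code for homeodomain proteins that give positions along the body axis and lie in 4 clusters. Hoxa5 was at 0.175 FPKM in control and 4.40 in DRB-released embryos (2.20). Hoxb7 was listed at 0 in control and at 7.40 FPKM in DRB-released embryos, and Hoxb2 was at 0.964 and 5.06 (1.63). Hoxd13, the last gene of its cluster, was at 5.32 and 14.9 FPKM (1.33). Over every listed gene, measured or not, 11 of 11 Hoxa genes were above control, 10 of 10 Hoxb, 8 of 9 Hoxc and 8 of 9 Hoxd. Among those at 1 FPKM or more in both libraries the counts were 3 of 3 Hoxa, 2 of 2 Hoxb and 3 of 4 Hoxd, and the Hoxc cluster had none at that level. Hoxd1 was at 6.46 and 6.45 FPKM. Hoxa7, the most abundant in the control, was at 13.4 and 17.1 FPKM (0.33). In the separately normalized early 2-cell library Hoxa7 was at 6.52 FPKM. Neighbouring Hox genes overlap and carry antisense transcripts, so reads of 1 gene may be counted for another.

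Other transcription factors of body and organ patterning were also above control in most cases. Of 76 listed, 63 were above control, 11 below and 2 equal, with a median of 0.42 over all 76. By the 2-fold rule 18 were higher and 1 lower of 62 measured, 20 of which passed only through the DRB-released library. Among the 41 at 1 FPKM or more in both libraries 9 were higher, 1 was lower and the median was 0.26. Meis2, a partner of Hox proteins, was the most abundant, at 34.8 FPKM in control and 91.0 in DRB-released embryos (1.36). It was at 116 FPKM in PN5 zygotes. Its paralog Meis1 was at 0.406 and 3.02 FPKM (1.52), and at 0.0821 in PN5 zygotes.

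The neural factors Pax6 (5.44 and 14.9 FPKM, 1.30), Sox1 (10.1 and 21.6, 1.02) and Olig2 (0.409 and 4.13, 1.87) were higher. Hand1, a factor of heart and trophoblast, was at 4.49 and 10.5 FPKM (1.07), and all 3 listed Dlx genes, factors of the face and forebrain, were higher, Dlx2 at 4.44 and 11.1 (1.16). Foxl2, the ovarian factor and also a granulosa marker, was at 1.04 and 7.20 FPKM (2.01). Neurog2 (14.9 and 15.8 FPKM), Sox11 (13.1 and 14.0) and Lhx2 (6.94 and 7.42) were nearly level. Gata1, the factor of red blood cells, was the only member lower by the 2-fold rule, at 15.6 and 3.39 FPKM (-1.91), and was listed at 0 in PN5 zygotes. Irx2 was at 15.1 and 9.95 FPKM (-0.55).

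**Figure D4:**
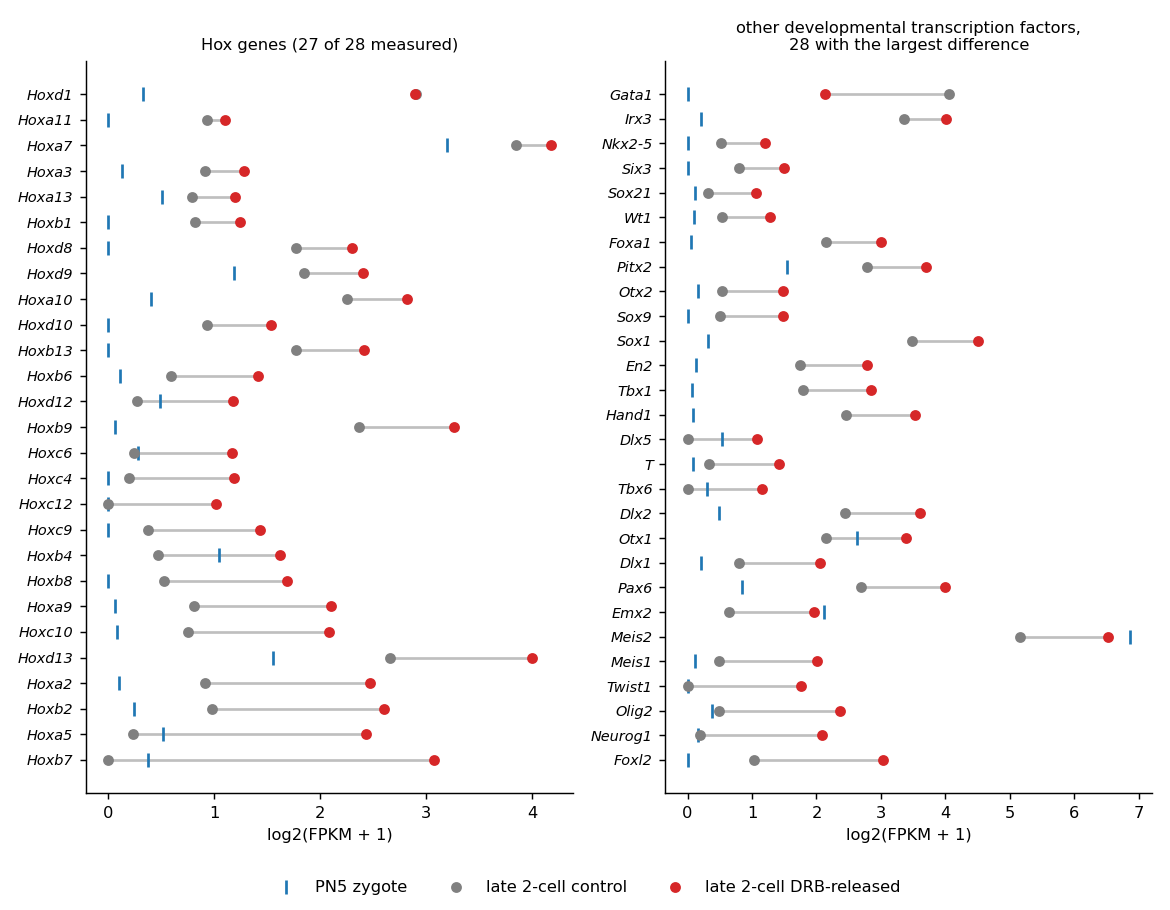
Levels in log2(FPKM + 1) of 27 of the 28 measured Hox genes (left) and of the 28 other developmental transcription factors furthest apart (right) in PN5 zygotes (blue bar), control late 2-cell embryos (grey) and DRB-released late 2-cell embryos (red), 1 library each. All but Hoxd1 on the left, and all but Gata1 on the right, have the red point to the right of the grey point, and 19 of the 28 measured Hox genes passed the minimum only through the red value.

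The promoters of Meis2 and Dlx2, the pair of developmental factors furthest above control among those at 10 FPKM or more with 1 listed start, were read in the same way. Meis2 lies at chr2:116064620-116064869 and Dlx2 at chr2:71546755-71547004, both on the minus strand.
Meis2: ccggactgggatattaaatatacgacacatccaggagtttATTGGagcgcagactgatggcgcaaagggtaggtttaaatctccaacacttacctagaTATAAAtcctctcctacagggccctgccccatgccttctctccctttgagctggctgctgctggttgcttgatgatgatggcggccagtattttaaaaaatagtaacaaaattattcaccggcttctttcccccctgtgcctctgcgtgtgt
Dlx2: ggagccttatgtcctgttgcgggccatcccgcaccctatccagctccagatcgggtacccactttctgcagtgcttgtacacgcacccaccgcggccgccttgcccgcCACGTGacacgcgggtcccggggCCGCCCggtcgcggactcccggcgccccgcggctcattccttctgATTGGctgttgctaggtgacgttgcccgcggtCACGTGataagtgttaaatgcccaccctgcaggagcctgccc
In Meis2 the capitals mark the letters TATAAA and, read on the other strand, CCAAT. In Dlx2 they mark CACGTG at 2 places and, read on the other strand, GGGCGG and CCAAT. These are matches of letters at any distance from the start, and whether they act as promoter elements was not tested. Over the 44 promoters of this list in the table, the median CpG ratio was 0.793 and 13.6% held TATAAA.

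Across all measured genes with a promoter, the lower genes had a median CpG ratio of 0.749 and the higher genes 0.526, against 0.746 for genes within the 2-fold range. TATAAA was in 10.0%, 16.6% and 9.01% of these windows. The higher genes are faint, only 216 of 580 being at 1 FPKM or more in both libraries, and faint genes have fewer CpG. Among genes below 5 FPKM the ratio was 0.468 for the 359 higher genes, 0.665 for the 296 lower genes and 0.651 for the rest. Between 5 and 20 FPKM it was 0.700, 0.762 and 0.774, with 20.3% of the 69 higher genes holding TATAAA against 8.61% of the lower and 7.80% of the rest. At 20 FPKM or more the shares went the other way, with TATAAA in 5.56% of the 18 higher genes, 11.5% of the lower and 9.04% of the rest. Grouped by the ratio itself, the median difference went from 0.17 in genes below 0.2 to -0.16 in genes at 1 or more. The level also differs between these classes, and after level centring the medians were 0.13 and -0.06.

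In the list of the subcortical complex and maternal effect genes, 33 of 49 measured were above control and 16 below, and the median was 0.21. Many of its members are abundant, and the median of all genes from 100 FPKM upward was 0.19. After level centring that of the list was 0.14. The median level of the measured members was 85.8 FPKM in control, 90.5 in DRB-released embryos and 296 in PN5 zygotes. Zbed3, of the subcortical maternal complex, was at 3667 FPKM in control and 5425 in DRB-released embryos (0.56), against 5112 in PN5 zygotes. Tcl1b1, the only member higher by the 2-fold rule, was at 377 and 819 FPKM (1.12), and at 0.87 after level centring it was not. Its level in PN5 zygotes, 296 FPKM, was below both. Omt2b was at 1438 and 1868 FPKM (0.38), against 643 in PN5 zygotes. The oocyte growth factor Bmp15 was at 766 and 1466 (0.94), against 1393 in PN5 zygotes. Oosp3, an oocyte secreted protein, was at 193 and 518 FPKM (1.42), against 491 in PN5 zygotes. Factors that store or clear such transcripts had a median of 0.01, with 1 lower and 1 higher of 49. Btg4, which brings the deadenylase to them, was at 1529 and 1948 FPKM (0.35), and Lsm14b, which stores them, at 281 and 127 (-1.14).

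Lineage genes of the later embryo did not move as a block. Of 45 signals of the Wnt, Notch and Bmp pathways, 2 were higher (4.44%, near the 4.48% of all measured genes), none was lower and the median was 0.01. The higher ones were Bmp4 (1.89 and 8.57 FPKM, 1.73) and Smad6, an inhibitor of Bmp signals (2.15 and 8.85, 1.64). Pluripotency factors had a median of -0.10, with Pou5f1 at 203 and 236 FPKM (0.22) and Dppa5a at 59.0 and 21.5 (-1.42). Of the trophectoderm list, Gata3 was at 2.60 and 10.2 FPKM (1.63), Gata2 at 13.3 and 26.7 (0.96) and the junction gene Cldn7 at 8.75 and 2.84 (-1.35). In the primitive endoderm list 3 of 21 were higher and 1 was lower. Foxq1 (4.32 and 13.1 FPKM), Foxa2 (1.37 and 4.06) and the receptor Pdgfra (2.59 and 6.41) were higher and Amn, a subunit of an uptake receptor, was lower (5.47 and 1.92, -1.15), while Gata4 was at 46.1 and 30.2 (-0.60). In the Fgf and Erk list 5 of 26 were lower and none higher, among them the phosphatase Dusp5 (21.3 and 6.25 FPKM, -1.62) and the kinase Map2k2 (20.4 and 5.41, -1.74), while Map2k1 was at 131 and 205 (0.63).

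Among genes at 10 FPKM or more in either library and 1 FPKM or more in both, the 15 furthest below and the 15 furthest above control were picked out. Of those below, several code for single enzymes and trafficking proteins outside the lists. Itgb5, an integrin, was at 20.1 FPKM in control and 2.76 in DRB-released embryos (-2.49), and Tcirg1, of the proton pump, at 23.2 and 3.59 (-2.40). Chmp2a, of the membrane-cutting ESCRT complex, was at 21.9 and 3.39 FPKM (-2.38). Amhr2, the receptor for anti-Mullerian hormone and a granulosa marker, was at 16.7 and 2.12 FPKM (-2.50), with 0 in PN5 zygotes and 6.64 and 9.13 in the ICM replicates. Of those above, Irs2, an adaptor of insulin signalling, was at 7.33 and 22.3 FPKM (1.49) and at 0.0722 in PN5 zygotes. Cxcr4, a chemokine receptor, was at 2.86 and 10.4 FPKM (1.57), Foxe1, a thyroid transcription factor, at 3.45 and 12.2 (1.57), and Bet1, of vesicle transport, at 15.1 and 48.0 (1.61). Amd2, at 2.31 and 44.2 FPKM, and Amd1, at 49.3 and 0.233, are near copies and went in opposite directions, so neither is certain.

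The level of a gene at other stages, which the size rule did not use, gave an order. By the mean of both ICM replicates, the median difference was 0.24 in the 2229 genes below 0.1 FPKM, -0.07 between 1 and 5 FPKM and -0.41 in the 827 genes at 100 FPKM or more. In the faintest of these classes 4.98% of genes were lower and 12.0% higher, and in the most abundant 23.6% were lower and 2.78% higher. The order held among genes of like level at the late 2-cell stage between 1 and 100 FPKM. Between 5 and 20 FPKM, for example, the median was 0.09 in genes below 1 FPKM in the ICM and -0.47 in genes at 20 FPKM or more there. At 100 FPKM or more in the late 2-cell embryo it was weaker, 0.30 and 0.18.

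By the level in PN5 zygotes, both directions thinned out as the level grew. Of the 1526 genes below 0.1 FPKM in PN5 zygotes, 13.4% were lower and 16.0% were higher in DRB-released embryos. Of the 697 genes at 100 FPKM or more, 1.00% were lower and 0.861% were higher. The late 2-cell level grew as well, with control medians of 1.63 and 103 FPKM in these classes. By the mean late 2-cell level, 21.2% of genes were higher at 0.1 to below 1 FPKM and 0.758% at 100 FPKM or more. Lower genes made up 8.07% and 1.70% there, and 13.8% between 5 and 20 FPKM. The PN5 classes were not split by the late 2-cell level. Taking both stages, the 372 genes below 1 FPKM in PN5 zygotes and at 20 FPKM or more in the ICM had a median of -0.55 and 26.9% were lower. The 2040 genes below 1 FPKM at both stages had a median of 0.21, with 8.28% lower and 15.6% higher. The 557 genes at 20 FPKM or more in PN5 zygotes and below 1 FPKM in the ICM had a median of 0.18, and 0.718% were lower. The ICM libraries were made by Smart-seq2, which primes on poly(A) tails, and the part of that difference in protocol was not tested.

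**Figure D5:**
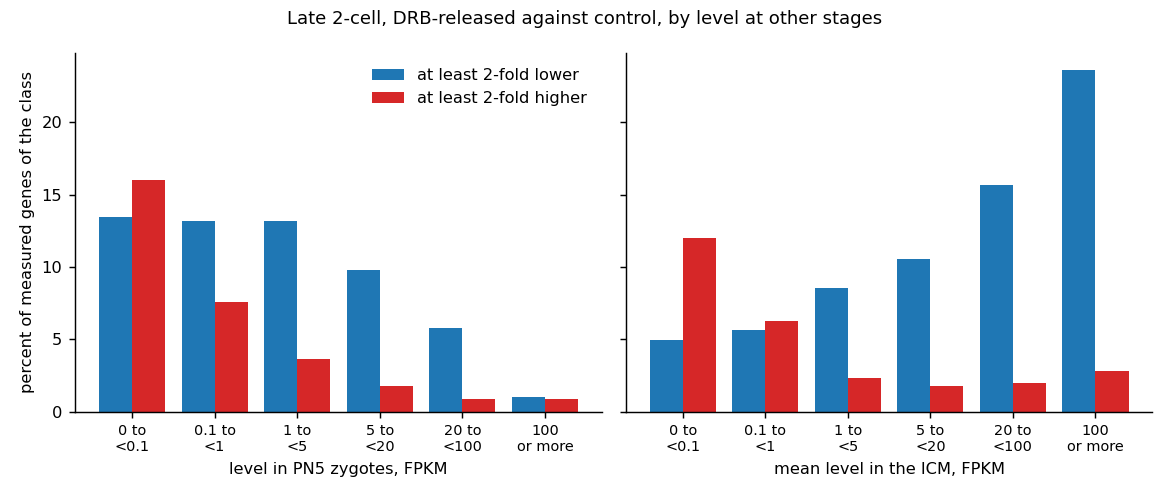
Percent of measured genes that were at least 2-fold lower (blue) or higher (red) in DRB-released than in control late 2-cell embryos, grouped by the level in PN5 zygotes (left) and by the mean level of the 2 ICM replicates (right), in FPKM. The share of lower genes goes from 4.98% to 23.6% with the ICM level and from 13.4% to 1.00% with the PN5 level. The classes also differ in the late 2-cell level.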

How the data were processed

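The authors deposited FPKM per gene symbol, 1 value per library. Build mm9 and the tools Cufflinks 2.1.1, TopHat2 2.1.1 and CASAVA 1.8 are credited to the submitters' processing notes, which assign no steps. Columns were tied to samples by their names and the labels' titles, and 0 value columns lacked a sample. Rows sharing a symbol were summed in each table, which left 24028 symbols in the table of PN5 and both late 2-cell libraries. Of these, 23901 were matched to the RefSeq gene table, 22668 by symbol and 1233 by synonym, and 20445 were protein-coding. No coordinate of that table was used. RefSeq promoters (GRCm38.p6) were found for 10471 of 12944 measured genes (80.9%).

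Differences were computed in log2(FPKM + 1) with a pseudocount of 1 FPKM, a minimum of 1 FPKM in either library and a size rule of 1. No test was possible with 1 library a side, and the smallest unit of replication is the pool of embryos. The 15 largest increases and 15 largest decreases at 10 FPKM or more in either and 1 FPKM or more in both libraries were named, and from each list up to 4 members with the highest mean and up to 4 with the largest difference; other named genes were chosen after their values were seen. Some genes that this rule names are not reported here. The members and lists were chosen with earlier results of these data known. Alternatives were other pseudocounts, filters, scalings and gene sets. Python 3.11.15, pandas 2.3.3, NumPy 2.4.6 and Matplotlib 3.10.9 were used.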

Additional observations from a re-analysis of the deposited data

Results flagged for a closer look

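Long noncoding RNAs and pseudogene transcripts were outside the protein-coding comparison. Of 672 at 1 FPKM or more in either late 2-cell library, 156 were at least 2-fold higher and 53 lower in DRB-released embryos, with a median of 0.44. Of all measured protein-coding genes 4.48% were higher and 10.0% lower. Among those with a mean of 0.1 to below 1 FPKM over both libraries, 21.2% were higher and 8.07% lower, with a median of 0.47. How many of the 672 passed the minimum only through the DRB-released library was not counted, and any such RNA had to be above control. Those at 10 FPKM or more in DRB-released embryos and at least 2-fold above control are named here, 14 in all, since they lie outside the main measurement. They were picked for being high in DRB-released embryos, and none of the lower RNAs is named. Malat1, an abundant nuclear RNA, was at 44.7 FPKM against 18.3 in control and 3.28 in PN5 zygotes. The snoRNA hosts Snhg8 and Snhg4 were at 13.4 against 4.33 FPKM and at 10.2 against 4.40. E330011O21Rik was at 55.7 against 25.9 FPKM and at 245 in PN5 zygotes, Gm20362 at 46.0 against 21.3, and AU021063 at 23.1 against 8.92 with 35.3 in PN5 zygotes. Rab26os was at 20.8 against 9.41 FPKM, Gm10510 at 19.1 against 7.27, 1110038B12Rik at 14.6 against 5.62, and Gm10433 at 12.0 against 5.41. A930004D18Rik was at 11.9 against 2.84 FPKM, 1810019D21Rik at 11.8 against 3.84, and BC051226 at 11.1 against 1.96. The pseudogene Tubb2a-ps2 was at 11.2 against 4.31 FPKM and at 30.5 in PN5 zygotes. Total RNA also holds unspliced and antisense transcripts, and with no replicate these values describe the pair of libraries.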

How the results depend on the processing

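Of the protein-coding genes, 580 were higher and 1296 lower, so higher genes made up 30.9% of those apart. With a pseudocount of 0.1 FPKM 1167 were higher and 1848 lower (38.7%), with a filter of 5 FPKM 184 and 1046 (15.0%), and after rescaling both libraries to a sum of 1000000, which also changes what the pseudocount and minimum are worth, there were 1591 and 1966 (44.7%). Median scaling gave 745 and 1077 (40.9%), level centring 538 and 1080 (33.3%), and taking every symbol instead of protein-coding ones 765 and 1371 (35.8%). Dropping the filter could change neither count. With a pseudocount of 1 FPKM, no gene below 1 FPKM in both libraries can reach a difference of 1. Without symbols that have a named pseudogene or several rows, a choice added after seeing the data, 558 were higher and 1255 lower (30.8%). Lower genes outnumbered higher ones under each of these settings. The median of the sperm list, 0.79, reversed to -0.00748 with the filter of 5 FPKM. List medians near 0 also changed sign, that of the trophectoderm list under 6 settings and those of the Wnt and Polycomb lists under 2. The immediate early, DNA methylation, G1, Fgf and Erk, and Bcl2 lists did so under 1 setting each. Level centring moved 31 of 54 list medians by over 0.1 and 30 of 108 list counts by over 1.5 times, and median scaling moved 23 medians and 12 counts. Of the 211 named genes that were 2-fold apart, 0 changed direction under the other pseudocount, both scalings or level centring. That count is no check of these genes, since it was all but fixed beforehand. A smaller pseudocount cannot change a direction, and the scalings moved the libraries by only 0.11 and -0.02, against differences of at least 1. The medians that level centring subtracts were also small, such as 0.47 for genes with a mean of 0.1 to below 1 FPKM. The alternative without genes of shared protein sequence was not run, because it needs a protein table that was not used here. No paired analysis was possible because each group held 1 library. FPKM gives no depth, so values of a few FPKM carry an unknown counting error.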
